A study of Rattus norvegicus with 6 samples.

Results

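RNA of 8 genes of the complement system and its acute-phase setting was followed in rat chondrocytes: C3, C1s, C1r, Cfb, Serping1, Cd55, Cd59 and Lcn2. They were taken by gene symbol, and all 8 were found among the 18420 genes of the deposited table and passed the filter on low counts. The 6 libraries came from passaged primary chondrocytes of wild-type male Sprague-Dawley rats. In the TNF-α group (n = 3) the cells were held for 6 h in TNF-α at 10 ng/mL. In the TNF-α+NFL group (n = 3) they received the same TNF-α for 6 h and then NFL for another 24 h. NFL is the freeze–thaw lysate of Nanofat, the stromal cell fraction of rat abdominal fat. Both groups had therefore been exposed to TNF-α, and untreated cells were not analysed here. The study gives these treatment times and no time of harvest. If each group was harvested when its treatment ended, this was at 6 h for TNF-α and 30 h for TNF-α+NFL. On that reading, NFL and the time of harvest cannot be told apart. The study calls the replicates independent and biological. The labels do not tie them to animals or cultures, so the p-values measure the spread between these samples.

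Directions below are those of the deposited group names. In the study's own gene list, the sign of the difference between the same groups runs the other way for the listed genes, so the groups are best read as the libraries labelled TNF-α and TNF-α+NFL.

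Complement is a cascade of plasma and tissue proteins that marks and lyses targets. C1r and C1s are the proteases that start the classical pathway after C1q binds, C3 is the central component on which all routes converge, and complement factor B (Cfb) supplies the protease of the alternative pathway convertase. Serping1 encodes C1 inhibitor, which blocks C1r and C1s, whereas CD55 and CD59 protect host membranes, CD55 by hastening the decay of convertases and CD59 by blocking the membrane attack complex. Lipocalin 2 (Lcn2) is not a complement protein but an iron-siderophore carrier induced with the acute phase by NF-κB and C/EBP factors. Inflammatory cytokines are known to induce several of these genes in cells of the joint.

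The libraries were of even depth, with 19344893 to 19725135 estimated counts. Of the 16 cartilage markers, Prg4 (lubricin) and Col11a1 had the highest levels, at 495 to 657 and 210 to 265 FPKM, which is scaled to transcript length and can be compared between genes. The defining cartilage genes were low: Col2a1 lay between 3.69 and 4.80, Acan between 2.34 and 3.04 and Sox9 between 2.05 and 2.55 FPKM. The 10 fibroblast markers were high, led by Thy1 at 1218 to 1359 and Col1a1 at 582 to 692 FPKM. The 8 endothelial markers summed to at most 0.21 FPKM, with Kdr at 0 counts in each library, and the 6 erythroid markers to at most 0.30. The 6 hepatocyte markers summed to at most 1.56 FPKM, most of it Serpina1. Among the 8 adipocyte markers, Fabp4 lay between 14.9 and 17.8 FPKM, Lpl between 1.98 and 3.27, and Adipoq at or under 0.14. The 10 macrophage markers summed to 19.4 to 25.0 FPKM in the TNF-α group and 17.3 to 21.9 in the TNF-α+NFL group, nearly all of it Cd68, and no gene of these lists passed an adjusted p of 0.05. TNF-α replicate 1 differed from the other libraries in the myeloid genes: Tyrobp had 11 counts there and 0 in each other library, Lyz2 had 14.95 and 0, and Csf1r had 40 against 1 to 7.

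The complement genes were expressed at very different levels. C1s and C1r were the highest of the 8, with mean FPKM values of 179 and 168 over the 6 libraries. Lcn2 and Serping1 followed at 91.9 and 76.6, Cfb was at 41.6, Cd59 at 27.5, C3 at 22.7 and Cd55 at 15.4. The ranges of C1s and C1r overlapped, as did those of Lcn2 and Serping1 and those of Cd59 and C3, while the other neighbours in this order did not overlap. C1s was above 96.6% of all tested genes and Cd55 above 64.8%. In these bulk samples, fewer cells that express a gene and less of its RNA per cell cannot be told apart.

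None of the 8 genes passed the test between the groups. With edgeR's quasi-likelihood test at a 0.05 threshold on adjusted p, 0 of 8 were called, where 0.611% of all 13250 tested genes were (0.408% higher and 0.204% lower in TNF-α+NFL). That background rests on single libraries: over all genes 54 were higher and 27 lower, but 466 and 472 once TNF-α replicate 1 was left out. Leaving out replicate 1 of TNF-α+NFL gave 3 and 0, and leaving out its replicate 2 gave 6 and 3. No member was called in any of these. At an unadjusted p under 0.05 the count was 0 as well, where 11.1% of all genes passed. No member had groups that did not overlap, against 16.8% of all genes. DESeq2 and limma-voom also called 0, with 1 (Serping1) and 0 at an unadjusted p under 0.05. Of the 8 log2 fold changes, 5 were above 0 and 3 below, and their median was 0.054 against -0.0035 for all tested genes. The exact permutation p of single members ran from 0.20 to 0.90 (two-sided), and 3 samples against 3 cannot go below 0.10.

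**Figure D1:**
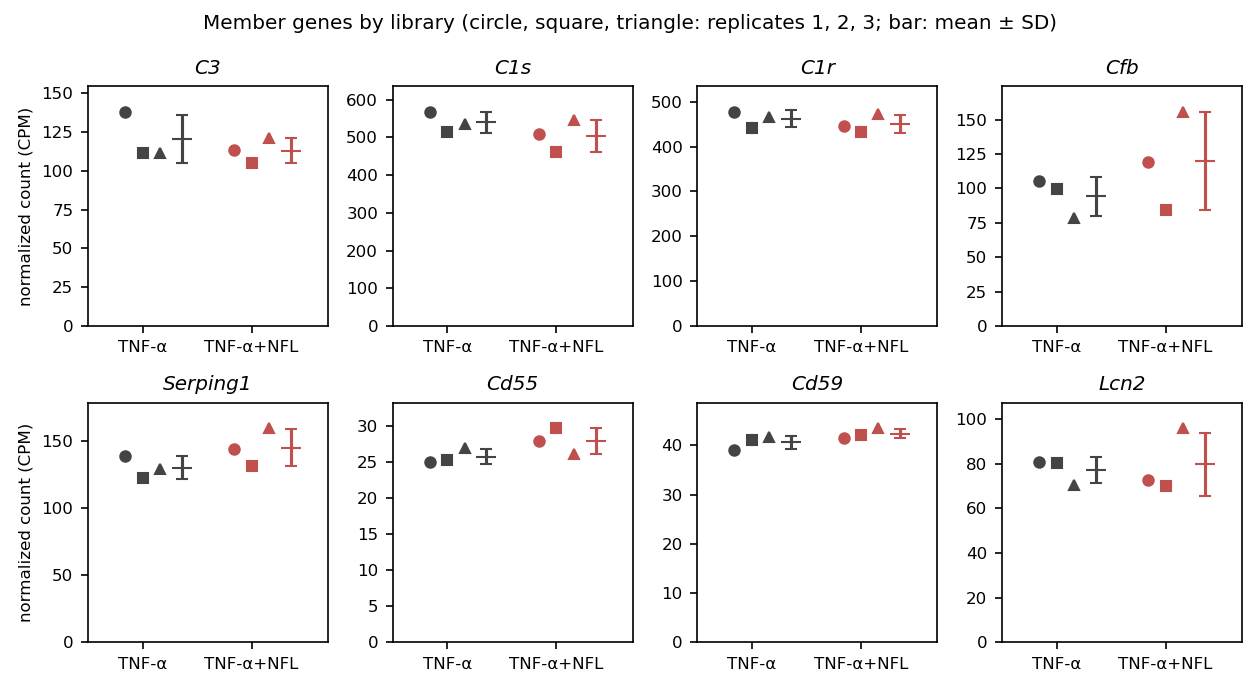
Normalized counts (CPM, y axes from 0) of the 8 genes in each library, by group, with circles, squares and triangles for replicates 1, 2 and 3 and a bar for the mean ± SD. The groups overlapped in each gene, and the triangle of TNF-α+NFL was highest of its group in 7 of the 8.

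The initiating proteases gave narrow intervals around 0. C1s had a normalized count, scaled for library size by the TMM method (CPM), of 568, 515 and 536 in TNF-α replicates 1, 2 and 3 and of 510, 460 and 545 in those of TNF-α+NFL. TNF-α replicate 1 was highest and TNF-α+NFL replicate 2 lowest, with the other 4 between them. Its log2 fold change was -0.10 with a 95% interval of -0.23 to 0.04, a standard error of 0.060 and an adjusted p of 0.62 (edgeR). The fold change was -0.03 without TNF-α+NFL replicate 2 and -0.15 without replicate 3 of that group. C1r lay at 478, 443 and 467 CPM in the TNF-α group and at 446, 432 and 472 in the TNF-α+NFL group. The same libraries were highest and lowest as for C1s, and the genes lie side by side in the RefSeq gene order of GRCr8. The interval of the log2 fold change of C1r, from -0.13 to 0.06, was the narrowest of the 8. It excludes a change as large as 1.5-fold, as do the intervals of the other members except Cfb. The estimated count of C1r was fractional in 4 of the 6 libraries, whereas that of C1s was whole in each.

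C3 and Cfb together form the alternative pathway convertase, and both intervals included 0. C3 was at 138, 111 and 111 CPM in TNF-α replicates 1, 2 and 3 and at 113, 105 and 121 in those of TNF-α+NFL. TNF-α replicate 1 stood above the other 5 libraries. For C3 the log2 fold change was -0.09 (95% interval -0.33 to 0.15, adjusted p = 0.83), and without TNF-α replicate 1 it was 0.02. TNF-α replicate 1 was also the library with counts of Tyrobp, Lyz2 and Csf1r given above, and their part in the level of C3 was not tested. Cfb was at 105, 99.5 and 78.1 CPM in the TNF-α group and at 119, 84.2 and 156 in the TNF-α+NFL group. TNF-α+NFL replicate 3 was the highest of the 6 and TNF-α+NFL replicate 2 lay among the TNF-α libraries. For Cfb the log2 fold change was 0.35, the largest of the 8, but with a 95% interval of -0.42 to 1.11 (standard error 0.28, adjusted p = 0.75) a change of either sign could not be told from the spread. Without TNF-α+NFL replicate 3 it was 0.11, and without TNF-α+NFL replicate 2 it was 0.55.

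The 3 inhibitors had log2 fold changes above 0, larger than the SD within groups (0.12 for Serping1, 0.08 for Cd55 and 0.04 for Cd59), and none passed the test. The list of complement regulators as a whole did not share this direction. Of its 11 tested genes, these 3 included, 5 were above 0 and 6 below, with a median of -0.015. Serping1 was at 139, 122 and 129 CPM in the TNF-α group and at 144, 132 and 160 in the TNF-α+NFL group. Its groups overlapped by TNF-α+NFL replicate 2, which was below TNF-α replicate 1. For Serping1 the log2 fold change was 0.16 (95% interval -0.01 to 0.32, standard error 0.073), and its adjusted p of 0.49 (edgeR) was the smallest of the 8. The log2 fold change was 0.08 without TNF-α+NFL replicate 3. Cd55 was at 25.1, 25.3 and 26.9 CPM in the TNF-α group and at 27.9, 29.7 and 26.1 in the other. Here TNF-α+NFL replicate 3 was the lowest of its group and replicate 2 the highest, unlike any other member, and the log2 fold change was 0.11 (95% interval -0.02 to 0.25, adjusted p = 0.56). Cd59 was at 39.0, 41.0 and 41.7 CPM in the TNF-α group and at 41.6, 42.1 and 43.5 in the other, with a log2 fold change of 0.06 (95% interval -0.05 to 0.17, adjusted p = 0.72). It had the least spread of the 8, and its estimated count was fractional in all 6 libraries. RefSeq lists its identifier as Cd59b, and whether its reads were shared with another gene was not tested.

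Lcn2 was at 80.8, 80.4 and 70.5 CPM in the TNF-α group and at 72.9, 70.3 and 96.0 in the TNF-α+NFL group. TNF-α+NFL replicate 3 alone lay above the TNF-α libraries, and the other TNF-α+NFL libraries lay within or just below them. For Lcn2 the log2 fold change was 0.05 (95% interval -0.33 to 0.42, adjusted p = 0.95). It was -0.11 without TNF-α+NFL replicate 3.

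**Figure D2:**
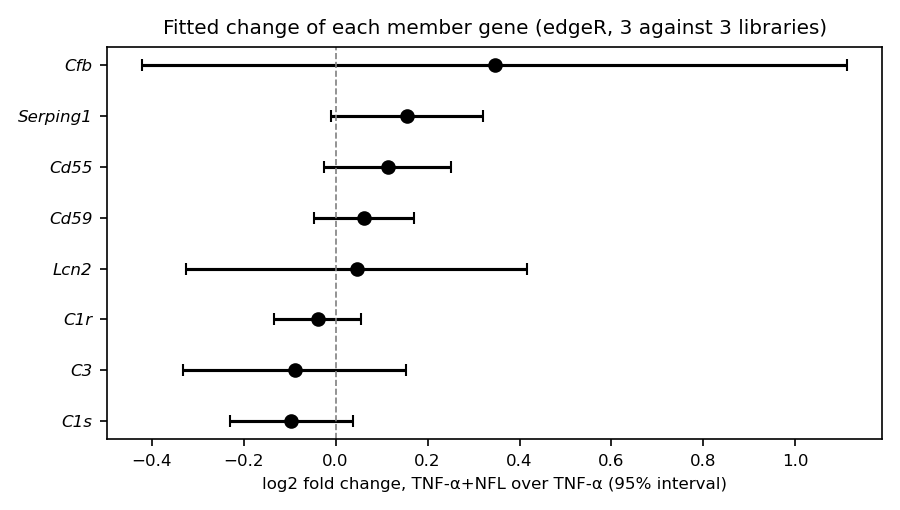
Fitted log2 fold change of each gene, TNF-α+NFL over TNF-α (x axis), with its 95% interval from the edgeR fit. The 8 intervals include 0, and they are widest for Cfb (-0.42 to 1.11) and Lcn2 (-0.33 to 0.42).

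Libraries of the same group also differed from each other. The SD within groups on the log2 scale was 0.35 for Cfb, 0.19 for Lcn2, 0.15 for C3 and 0.12 for Serping1. Among the 7098 tested genes with a mean of at least 20 CPM, these SDs were above 99.3%, 98.1%, 95.8% and 91.9% of genes. C1s was above 84.7%, Cd55 above 68.5%, C1r above 50.1% and Cd59 above 24.7%. In the TNF-α+NFL group, replicate 3 was the highest library in 7 of the 8 genes and replicate 2 the lowest in 6. In the TNF-α group, replicate 1 was the highest in 6.

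The step from TNF-α+NFL replicate 2 to replicate 3 was chosen for display after the values had been seen, and with 1 library on each side it has no replicate check. On the log2 scale it was 0.89 for Cfb, 0.45 for Lcn2, 0.28 for Serping1, 0.24 for C1s, 0.20 for C3 and 0.13 for C1r. These differences were larger than those of 99.9%, 99.7%, 99.4%, 99.04%, 98.4% and 93.6% of the 7098 genes. Cd59 was at 0.05, above 73.8% of the genes, and Cd55 went the other way at -0.19, lower than all but 2.23%. The median over all tested genes was -0.0034. Within the TNF-α group, Cfb and C3 were higher in replicate 1 than in replicate 3 by 0.43 and 0.31, more than 98.6% and 96.5% of the genes, and Lcn2 by 0.20.

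**Figure D3:**
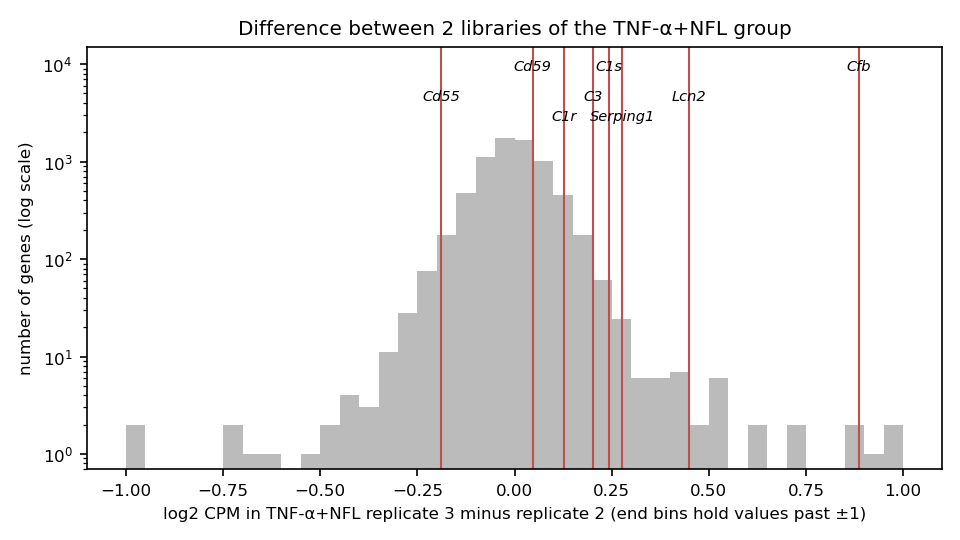
Histogram of the log2 CPM in TNF-α+NFL replicate 3 minus that in replicate 2 for the 7098 genes with a mean of at least 20 CPM (x axis, log2 difference; y axis, number of genes on a log scale), with red lines at the 8 genes. Cfb at 0.89 and Lcn2 at 0.45 lie in the right tail, and Cd55 at -0.19 lies to the left of 0.

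Promoters were read for 4 of the 8 members, those with a sequence in the table of GRCr8 promoters. The 250 bases before the start of all 4, Lcn2, C3, C1r and Cd55, are shown, with no choice among them. The windows are chr3:36081781-36082030 on the minus strand for Lcn2, chr9:2201340-2201589 on the minus strand for C3, chr4:159098763-159099012 on the plus strand for C1r and chr13:44438102-44438351 on the minus strand for Cd55. Capitals mark matches, on either strand, to TTGCNNAA, a C/EBP type motif, and to the NF-κB consensus.
Lcn2: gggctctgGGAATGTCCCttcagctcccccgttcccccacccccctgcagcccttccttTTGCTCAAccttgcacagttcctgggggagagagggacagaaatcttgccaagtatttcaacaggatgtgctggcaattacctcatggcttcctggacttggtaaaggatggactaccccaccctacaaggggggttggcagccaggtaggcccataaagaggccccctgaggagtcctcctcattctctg
C3: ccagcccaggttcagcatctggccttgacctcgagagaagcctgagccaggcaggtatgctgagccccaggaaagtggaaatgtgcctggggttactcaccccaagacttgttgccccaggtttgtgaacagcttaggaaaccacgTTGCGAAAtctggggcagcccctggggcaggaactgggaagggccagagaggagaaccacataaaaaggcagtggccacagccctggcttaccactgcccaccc
C1r: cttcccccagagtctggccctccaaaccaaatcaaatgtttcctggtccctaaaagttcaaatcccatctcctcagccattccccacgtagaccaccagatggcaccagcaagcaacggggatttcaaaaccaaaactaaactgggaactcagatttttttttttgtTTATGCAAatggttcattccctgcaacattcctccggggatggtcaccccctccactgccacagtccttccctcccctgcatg
Cd55: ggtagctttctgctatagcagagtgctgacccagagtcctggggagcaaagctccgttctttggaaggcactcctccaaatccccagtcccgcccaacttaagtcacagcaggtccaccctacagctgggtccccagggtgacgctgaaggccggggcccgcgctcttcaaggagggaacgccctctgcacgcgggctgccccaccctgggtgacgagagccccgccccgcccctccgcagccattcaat

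The C/EBP type motif was found in 3 of the 4 windows, those of Lcn2 (TTGCTCAA), C3 (TTGCGAAA) and C1r (TTATGCAA, on the other strand), and in 9.22% of the 33469 promoters of the table. The NF-κB consensus was found in 1 of the 4, that of Lcn2 (GGAATGTCCC, on the other strand), and in 6.33% of all promoters. The matches do not overlap each other. The motifs were chosen after the values had been seen, the NF-κB consensus after a looser form had been searched. A match is only a run of letters, and no binding was measured.

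Ratios between members within a library do not depend on the scaling between libraries. They were chosen after the values had been seen, and 6 were computed. Their p-values, also as adjusted over the 6, take no account of that choice and describe the separation only. The ratio of Serping1 to C1s, the inhibitor to a protease that it blocks, was 0.397, 0.386 and 0.390 on FPKM in TNF-α replicates 1, 2 and 3 and 0.458, 0.464 and 0.475 in those of TNF-α+NFL. All 3 TNF-α+NFL libraries lay above the TNF-α libraries, with group means of 0.391 ± 0.00585 and 0.466 ± 0.00887 (SD, n = 3 each). The difference was 0.25 on the log2 scale (exact permutation test, two-sided, p = 0.10, the smallest possible here, and 0.30 adjusted over the 6 ratios). Among the other 13249 tested genes, the ratio to C1s was higher in each TNF-α+NFL library for 11.9%, so a separation of this kind was not rare. The ratio of Serping1 to C1r also separated, at 0.426 ± 0.0129 and 0.487 ± 0.0253 (SD, n = 3 each), with an exact permutation p of 0.10 and 0.30 adjusted. The ratio to C1r was higher in each TNF-α+NFL library for 8.87% of the other tested genes. C1r to C1s was close to even, at 0.919 ± 0.0161 and 0.958 ± 0.0423, and overlapped between the groups. The ratio of Cfb to C3 was 1.52, 1.78 and 1.40 in the TNF-α group and 2.10, 1.60 and 2.57 in the TNF-α+NFL group, with overlap (exact permutation p = 0.20, 0.30 adjusted). Cd55 to C3 and Cd59 to C3 overlapped as well (exact permutation p = 0.40 and 0.60).

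**Figure D4:**
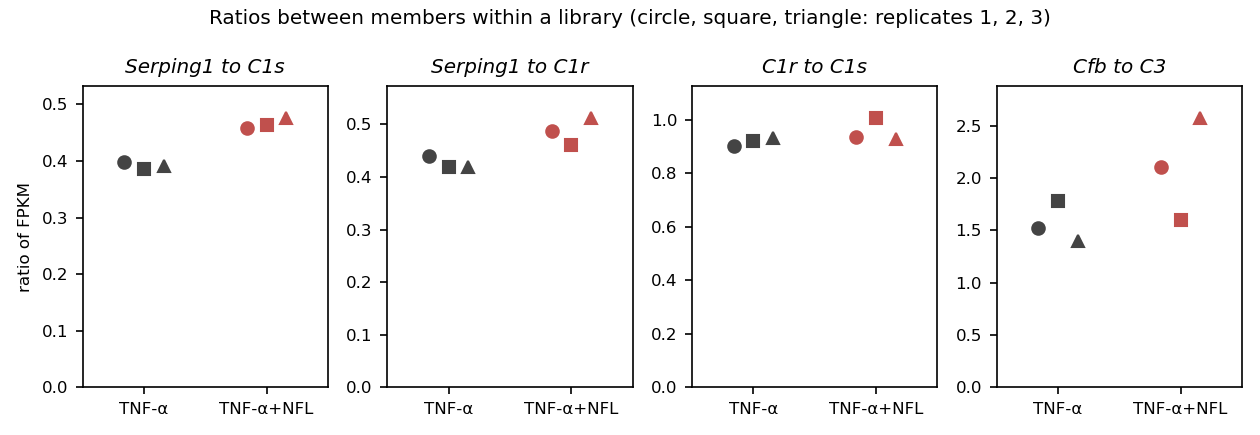
Ratio of FPKM values within each library (y axes from 0) for 4 pairs of members, with circles, squares and triangles for replicates 1, 2 and 3. Serping1 to C1s lies between 0.386 and 0.397 in the TNF-α libraries and between 0.458 and 0.475 in the TNF-α+NFL libraries, whereas Cfb to C3 overlaps.

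The rest of the complement system was read from a list of 50 other genes, of which 40 were in the table and 21 were tested. None was called by edgeR. At an unadjusted p under 0.05, 1 was higher and 2 were lower, where 11.1% of all tested genes passed. Limma-voom gave the same counts for the whole complement list with 0 called, and the DESeq2 Wald test called 1 higher, F3. In 8 the log2 fold change was above 0 and in 13 below, with a median of -0.047. Groups that did not overlap were found for 3 in each direction, where 8.66% of all genes did not overlap upward and 8.17% downward.

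Several upstream and terminal components were at or near 0 in these cells. Of the initiating genes, C1qb, a chain of C1q, had 0 counts in each library, and the recognition lectins Mbl1, Mbl2, Fcna and Colec10 had at most 4.24 counts. Another lectin, Colec11, named after its values were seen, had 46, 51 and 45 estimated counts in the TNF-α group and 33, 40 and 20 in the other. Its groups did not overlap, and its log2 fold change of -0.61 was the largest in size on the complement list (standard error 0.24, adjusted p = 0.34 in edgeR). Masp1, the lectin pathway protease, was at 9.81 FPKM (log2 fold change 0.08, adjusted p = 0.65), C1rl at 7.92 and Masp2 at 2.21. C2, which pairs with C4 as Cfb does with C3 and lies next to Cfb in the RefSeq gene order, was at 27.9 FPKM. Its CPM was 76.9, 64.3 and 69.3 in the TNF-α group and 72.7, 72.7 and 83.0 in the other (log2 fold change 0.12, adjusted p = 0.62), so replicate 3 was again the highest of TNF-α+NFL. C4a was at 2.02 FPKM, with reads that can be shared with its near copy C4b, and Cfp (properdin) at 1.52. C5, whose cleavage starts the membrane attack complex, reached at most 2 counts in a library. Of the terminal components, C7 had 0 counts, C6 and C9 at most 5, and C8g was at 3.53 FPKM (log2 fold change -0.27, adjusted p = 0.61).

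Among the other regulators, F3 (tissue factor, listed for the tie between coagulation and complement), Clu (clusterin, a terminal pathway inhibitor) and Cr1l (the rodent convertase regulator Crry) had the highest levels, at 333, 320 and 91.5 FPKM. F3 was at 487, 560 and 580 CPM in the TNF-α group and at 630, 618 and 650 in the other. Its groups did not overlap, with a log2 fold change of 0.22 (adjusted p = 0.16 in edgeR, standard error 0.059). The adjusted p of F3 was 0.0090 with the DESeq2 Wald test and 0.0040 without TNF-α replicate 1, settings that called 95 higher and 53 lower, and 466 and 472, of all genes. Clu was at 557, 488 and 526 CPM against 589, 525 and 668 (log2 fold change 0.18, adjusted p = 0.58). Thbd (thrombomodulin), named after its values were seen, had a log2 fold change of -0.35 (adjusted p = 0.18) at 2.34 FPKM. Among the receptors, C3ar1 and Itgam had at most 6 counts in a library, C5ar2 was at 5.19 FPKM, Itgb2 at 0.370, and C1qbp, a mitochondrial protein that also binds C1q, at 137 (log2 fold change -0.05, adjusted p = 0.71).

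Lcn2 was also set beside other acute-phase genes. Of the 22 on this list, Lcn2 included, 17 were in the table and 12 were tested, and edgeR and limma-voom called none. At an unadjusted p under 0.05, 1 was higher and 1 lower in both, where 11.1% of all genes passed in edgeR. The DESeq2 Wald test called 1, Serpina3n, where it called 95 higher and 53 lower of all genes. Of the 12, 7 lay above 0 and 5 below, with a median log2 fold change of 0.07. Serpina3n, a protease inhibitor of the acute phase, had the highest level at 495 FPKM. Its CPM was 1001, 908 and 937 in the TNF-α group and 1075, 1002 and 1189 in the other, so that the groups did not overlap (log2 fold change 0.20, standard error 0.062, adjusted p = 0.25, and 0.031 with the DESeq2 Wald test). Lbp, the lipopolysaccharide-binding protein, was at 305 FPKM (log2 fold change -0.04, adjusted p = 0.88), and Ptx3, a pentraxin that binds C1q, at 38.4 (log2 fold change 0.10, adjusted p = 0.52). The step from TNF-α+NFL replicate 2 to replicate 3 had a median of 0.44 over the 12 genes, and 11 of them were higher in replicate 3. Of the genes around lipocalin 2 itself, the receptor gene Slc22a17 was at 15.1 FPKM with a log2 fold change of -0.21 (adjusted p = 0.16), Mmp9, whose product binds lipocalin 2, was at 48.7 with -0.06 (adjusted p = 0.76), and the receptor gene Lrp2 was at 0.0917.

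Factors and receptors known to act on these genes came next. Of 24 on the list, 23 were tested. EdgeR called none, with 1 higher and 2 lower at an unadjusted p under 0.05 (11.1% of all genes), as did limma-voom, and the DESeq2 Wald test called none, with 1 and 0. Their median log2 fold change was -0.026. The highest levels were those of Nfkbia, an NF-κB inhibitor and target, at 212 FPKM, Cebpb at 160 and the IL-6 family receptor Il6st at 155. Their log2 fold changes were -0.054, -0.050 and -0.044, with adjusted p from 0.63 to 0.80. The median step of the list from TNF-α+NFL replicate 2 to replicate 3 was -0.010, and 8 of the 23 were higher in replicate 3. For the 8 members the median step was 0.22. For the 21 other tested complement genes it was 0.045, and 14 of them were higher in replicate 3. Irf1, an interferon-responsive factor known to act on Cfb, was named after its values were seen: it was 0.19 higher in TNF-α+NFL replicate 3 than in replicate 2, more than 97.97% of the genes, while Nfkb1, also named after its values were seen, was at -0.033.

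**Figure D5:**
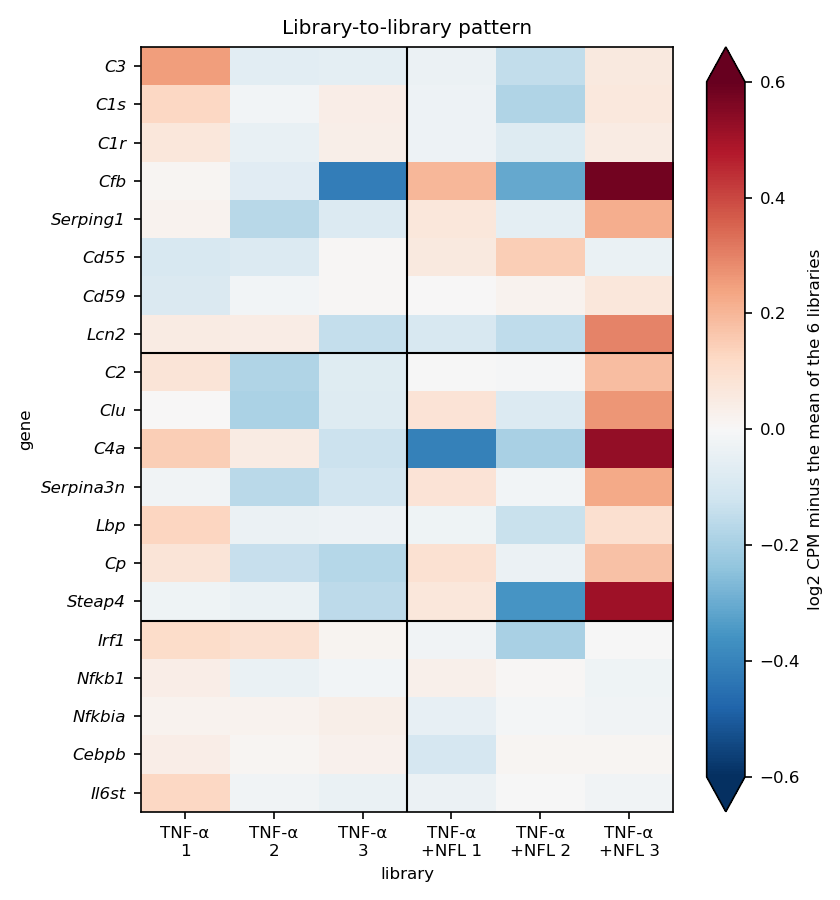
Log2 CPM minus the mean over the 6 libraries (color) for the 8 genes (top block), 7 other complement and acute-phase genes (middle block) and 5 regulators (bottom block), the lower blocks chosen after the values were seen, with the libraries as columns. TNF-α+NFL replicate 3 is high and replicate 2 low for Cfb, Lcn2 and Steap4, C4a is high in replicate 3 and lowest in replicate 1, and the regulators are paler, with Irf1 in TNF-α+NFL replicate 2 farthest from 0.

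The genes with the profile most like that of C3 were sought by the root-mean-square difference of centred log2 CPM over the 6 libraries, among 9094 other genes with a mean of at least 10 CPM. They were Parm1 (0.032), Nr2c2 (0.040) and Hyal1, which encodes a hyaluronidase (0.043), where the SD of C3 itself was 0.14. For Cfb, chosen for its spread, they were Ucma, a cartilage matrix gene (0.12), Steap4, a metalloreductase of the acute-phase list (0.13), and Cpxm1 (0.13), where the SD of Cfb was 0.36. All of these were picked as the nearest of many genes over only 6 libraries, and no tie to C3 or Cfb was tested. Among the members, C1r and C1s were the pair with the closest profiles (0.049), and Cfb and Cd55 the pair farthest apart (0.37).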

How the data were processed

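RNA of 3 TNF-α and 3 TNF-α+NFL samples was selected by poly(A) and read as 50-base single-end reads. Per gene, the authors deposited unnormalized estimated counts, FPKM values, scaled to transcript length and mapped reads, and TPM values, used here only to check their sums. The submitters' processing notes name HISAT2 2.0.4, Bowtie2 2.2.5, RSEM 1.2.12 and Rnor_6.0, with no roles. Strand was not stated. GRCr8 tables served for names (17068 of 18420 identifiers matched) and promoters.

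After rounding, the estimated counts went into edgeR 4.0.16 (R 4.3.3) with filterByExpr, TMM and a robust quasi-likelihood test (two-sided), and p-values were adjusted by Benjamini-Hochberg over 13250 genes. The F statistic of each gene gave its standard error and 95% interval. CPM are TMM-scaled, with a prior count of 1 on the log2 scale. DESeq2 1.42.0 and limma 3.58.1 (voom, and log2(FPKM + 1)) were alternatives. The test was checked on simulated counts. Depth was 19344893 to 19725135 counts, and counting error weighs most on Cd55 and Cd59, the members with the fewest counts.

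The members and lists were chosen with earlier results of these data known. Genes named were the members, list genes past an adjusted p of 0.05, the 3 highest others by FPKM in each list, and those nearest to C3; other names are said to be later choices or stand for low counts. The lists were complement (initiation, convertases, terminal, regulators, receptors), acute phase, lipocalin partners, transcription regulators and cell type markers.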

Additional observations from a re-analysis of the deposited data

How the results depend on the processing

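No member passed an adjusted p of 0.05 under any of the 13 alternatives run: DESeq2's size factors, no filter on low counts, at least 10 counts in every library, the DESeq2 Wald test (which gave no adjusted p for Cd55), limma-voom, limma on log2(FPKM + 1), the replicate number as a block and leaving out each library. The adjusted p ran from 0.33 (Serping1 with the block) to 0.99. Direction held for 6 of the 8 members. C3 ran from -0.14 to 0.023 with 1 library left out, the latter without TNF-α replicate 1, and Lcn2 from -0.11 to 0.13, being -0.013 without TNF-α replicate 3. The other members also moved, C1s from -0.15 to -0.03, C1r from -0.07 to -0.01, Cfb from 0.11 to 0.55, Serping1 from 0.08 to 0.22, Cd55 from 0.07 to 0.16 and Cd59 from 0.04 to 0.08. The cause was not tested.

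The DESeq2 Wald test called 1 higher gene of the complement list (F3) and 1 of the acute-phase list (Serpina3n), where edgeR called 0. With 1 library left out, the called genes ran from 0 to 1 higher for the complement list, from 0 to 1 in each direction for the acute-phase list and from 0 to 1 in each direction for the transcription regulators, the 1 always without TNF-α replicate 1 (F3, Cp higher and Cd14 lower, Il1r1 higher and Cebpd lower), where 466 genes were higher and 472 lower over all genes. DESeq2 called 95 and 53 over all genes, limma on FPKM 3 and 3, and no filter 84 and 48. With 1 other library left out, the range was 3 to 32 higher and 0 to 10 lower.

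With the replicate block, 0 members were called, and over all genes 25 were higher and 9 lower against 54 and 27. The numbers do not pair the samples: deviations of same-numbered samples correlated at 0.043, -0.021 and 0.107, and not every sample correlated best with its own number. The ratio of Serping1 to C1s, with alternatives added after the data had been seen, ran from 0.24 to 0.26 on the log2 scale.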
